A study of Homo sapiens with 8 samples.

Results

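The 9 genes described here, MDM2, MDM4, PPM1D, BTG2, SESN1, TP53INP1, ZMAT3, XPC and FDXR, are transcriptional targets or feedback regulators of the tumour suppressor p53. They were chosen by gene symbol, and each symbol had 1 row among the 63102 genes of the deposited table that had no missing value. All 9 had a mean of at least 1 RPKM (read number divided by gene length and by the reads mapped in that library) over the 8 libraries and were therefore among the 14732 genes tested. p53 is a transcription factor that is stabilised by DNA damage and other stress, binds response elements near its target genes, and recruits coactivators that include the acetyltransferases CBP and EP300. Its targets arrest the cell cycle, repair DNA, restrain growth signalling or induce apoptosis, and some of them, such as MDM2 and PPM1D, act back on p53 to limit its activity. Loss of p53 function is a known marker of aggressive disease in multiple myeloma.

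RNA-seq was carried out on LP-1, a single human multiple myeloma cell line grown in IMDM with serum, after 6 h of treatment. SGC-CBP30, an inhibitor of the CBP and EP300 bromodomains, was used at 2.5 μM, and CPI203, an inhibitor of the BET family bromodomains, at 250 nM. Each compound has 2 libraries and its own 2 DMSO libraries, matched through the library names in the labels, and the study describes them as biological replicates of this single line. Groups are called by compound, and the DMSO libraries by the experiment they belong to. The word experiment stands here for the libraries that share a name series, SL or CM. What the series stand for is not given in the labels. Because each compound has a name series of its own, a difference between compounds and a difference between the series cannot be told apart.

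Estimated depth was between 25950000 and 50000000 reads per library, with the SGC-CBP30 libraries (50000000 and 46750000 reads) deeper than their DMSO libraries (34350000 and 34000000 reads). The 6 plasma cell markers (SDC1, CD38, TNFRSF17, IRF4, PRDM1 and XBP1) were between 19.5 and 334 RPKM in every library. Their summed level was 450 to 468 RPKM with SGC-CBP30 (691 to 710 RPKM in its DMSO) and 522 to 534 RPKM with CPI203 (847 to 848 RPKM in its DMSO). Not every marker was lower. Mean SDC1 was higher with SGC-CBP30 (50.2 against 45.5 RPKM) and mean PRDM1 with CPI203 (68.2 against 52.9 RPKM), while the others were lower. With SGC-CBP30 mean IRF4 was 82.8 RPKM against 213 RPKM in DMSO. Of the 7 markers of other lineages, PAX5 and EPCAM were at 0 in every library, and CD3E, CD14, CD33 and MS4A1 did not pass 0.18 RPKM. HBB was the exception and reached 3.55 RPKM in a DMSO library of the CPI203 experiment. The summed level of these 7 markers was 1.31 to 1.4 RPKM with SGC-CBP30 (0.86 to 0.943 RPKM in its DMSO) and 1.33 to 2.0 RPKM with CPI203 (3.27 to 3.67 RPKM in its DMSO). The part of these marker levels in the results was not tested.

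The promoter windows of the genes were searched for p53 response elements, since this is the sequence through which p53 acts on them. A full element is a pair of adjacent copies of the p53 half-site consensus, each of 10 bases, and the consensus equals its own reverse complement, so both strands are read at once. RefSeq promoter windows on GRCh38.p14, from 250 bases before to 50 bases after an annotated start, were given for 8 of the 9 genes, in 15 windows. An element with at most 2 mismatches in 20 bases lay in 2 overlapping windows of MDM2, at a single position, chr12:68808923-68808942 on the plus strand, which begins 94 bases before an annotated start. Of all 35116 promoter windows, 0.285% held such an element. An exact half-site lay in 1 window of SESN1, at chr6:109009028-109009037 on the minus strand and 49 bases before the start, and in 1 window of FDXR, at chr17:74872996-74873005 on the minus strand and 11 bases before the start, against 6.63% of all windows. No window was given for TP53INP1, so that gene was not searched. These 3 stretches are shown because they are the matches among the 8 genes searched. Elements with more than 2 mismatches, or with any mismatch at the single-base C and G positions of the consensus, were not counted. Nor were half-sites with other bases between them. A weaker or spaced element may therefore lie in these windows, also beside the half-site in SESN1 or FDXR. Capitals mark the element in MDM2 and the half-site in SESN1 and FDXR, and a match is a string of letters, not evidence of binding.
MDM2: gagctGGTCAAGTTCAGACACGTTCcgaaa
SESN1: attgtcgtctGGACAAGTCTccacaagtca
FDXR: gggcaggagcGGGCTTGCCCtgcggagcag

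RPKM is scaled to gene length, so levels can be set side by side between genes. Over the 4 DMSO libraries, BTG2 was the most abundant of the 9 genes, at 122 ± 11.6 RPKM (mean ± SD, n = 4), followed by TP53INP1 at 33.7 ± 3.63 and MDM2 at 22.1 ± 0.866 RPKM. XPC (10.3 ± 0.626 RPKM), MDM4 (9.35 ± 0.699 RPKM), PPM1D (8.47 ± 0.397 RPKM) and SESN1 (8.32 ± 1.98 RPKM) followed, and each overlapped its neighbour in this order. FDXR at 4.12 ± 0.159 RPKM and ZMAT3 at 2.07 ± 0.478 RPKM were the lowest, and did not overlap each other. The DMSO libraries of the 2 experiments did not overlap for BTG2, SESN1, TP53INP1 and XPC. For SESN1 they were at 6.46 and 6.79 RPKM beside SGC-CBP30 and at 9.68 and 10.4 RPKM beside CPI203, and each compound was set against its own DMSO libraries.

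**Figure D1:**
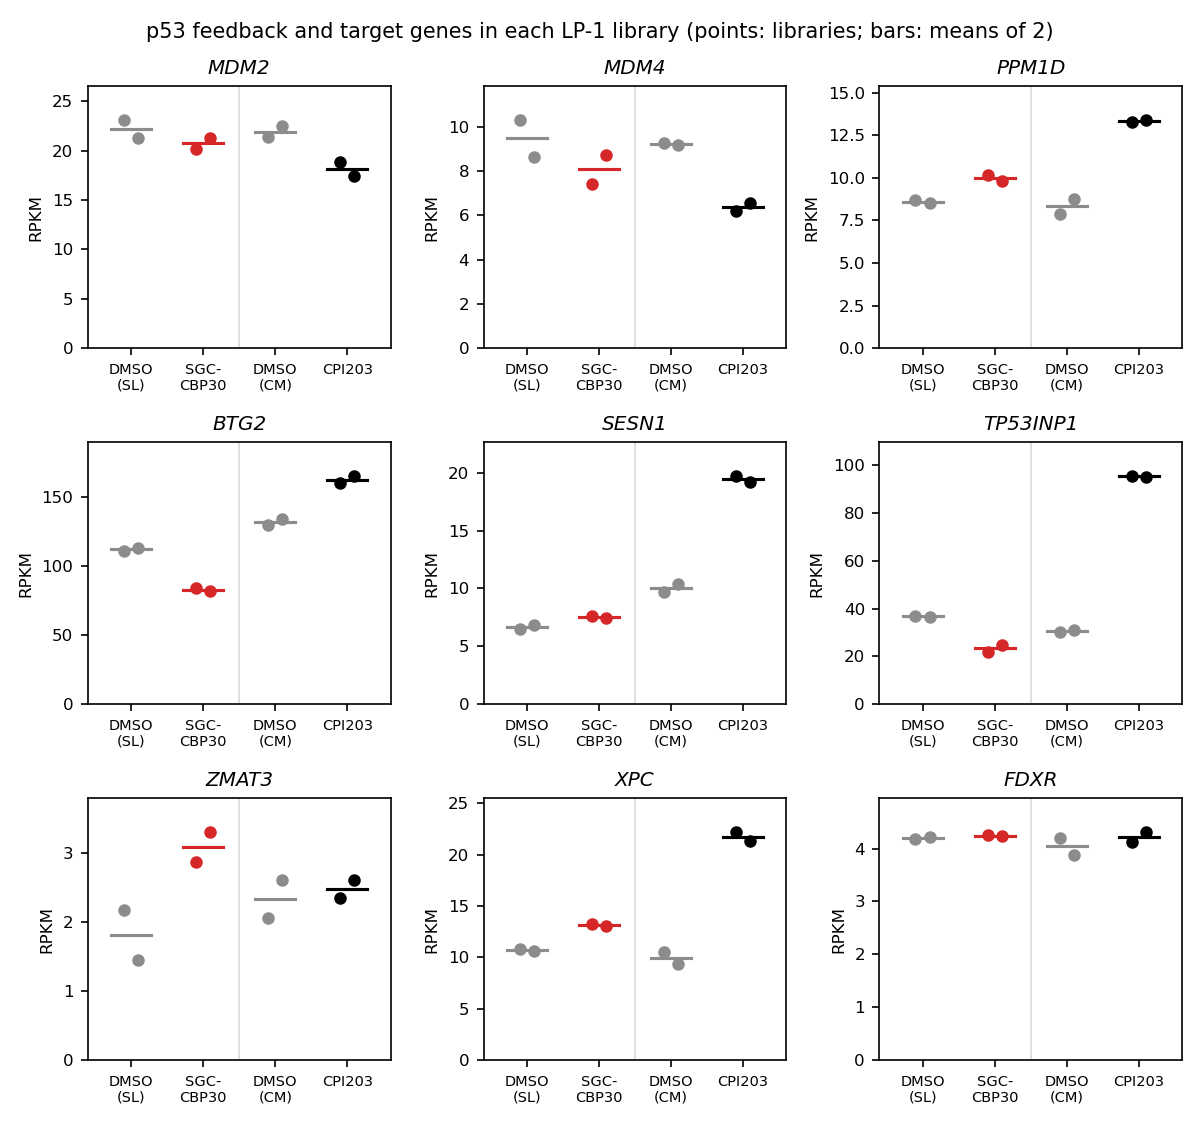
RPKM of the 9 genes in each of the 8 LP-1 libraries, with a point per library, a bar at the mean of each group of 2, a linear axis from 0, and a grey line between the SGC-CBP30 experiment (left, DMSO marked SL) and the CPI203 experiment (right, DMSO marked CM). TP53INP1 lies near 95 RPKM in both CPI203 libraries and between 22.0 and 24.7 RPKM with SGC-CBP30, while FDXR stays between 3.88 and 4.31 RPKM throughout.

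Changes were tested with limma on log2(RPKM + 0.1), and a gene was called when its Benjamini-Hochberg adjusted p over all genes tested was under 0.05 and its change at least 1.5-fold. With CPI203, 4 of the 9 genes were called higher (TP53INP1, XPC, SESN1 and PPM1D) and 0 lower, where 27.8% of all genes tested were called, 13.4% higher and 14.4% lower. At an adjusted p under 0.05 with no minimum fold, 5 were higher and 2 lower with CPI203, where 64.2% of all genes passed, 31.1% higher and 33.1% lower. With SGC-CBP30, ZMAT3 was called higher and TP53INP1 lower, so 2 of 9 genes were called where 7.26% of all genes were (3.47% higher and 3.79% lower). Of the calls over all genes with SGC-CBP30, 47.8% were higher as deposited, 32.5% after median scaling and 32.4% after quantile normalization, and both calls among the 9 genes held under either scaling. When all 4 DMSO libraries served as controls, SGC-CBP30 gave 0 calls among the 9, and it gave 1 with a pseudocount of 1, with no filter, and without DMSO replicate 2, SGC-CBP30 replicate 1 or SGC-CBP30 replicate 2. With no minimum fold, 3 of the 9 were higher and 2 lower with this compound, where 40.4% of all genes passed, 25.6% higher and 14.8% lower. Under either scaling this became 2 higher and 3 lower, as PPM1D no longer passed and MDM4 did.

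Both treated libraries lay above both DMSO libraries for 5 of the 9 genes with CPI203 and below them for 2, where 39.2% and 41.7% of all genes did. With SGC-CBP30 this held for 5 genes above and 2 below, where 45.9% and 27.2% of all genes did. These shares were not far from the background. On the log2 scale the median change of the 9 genes was 0.30 with CPI203 and 0.01 with SGC-CBP30, beside -0.01 and 0.07 over all genes tested. With 2 libraries against 2, an exact permutation test cannot give a two-sided p under 0.333, so each call rests on the spread pooled over genes and groups by limma. Since each library averages a whole culture, a change in every cell and a change in the share of cells with a transcript cannot be told apart.

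**Figure D2:**
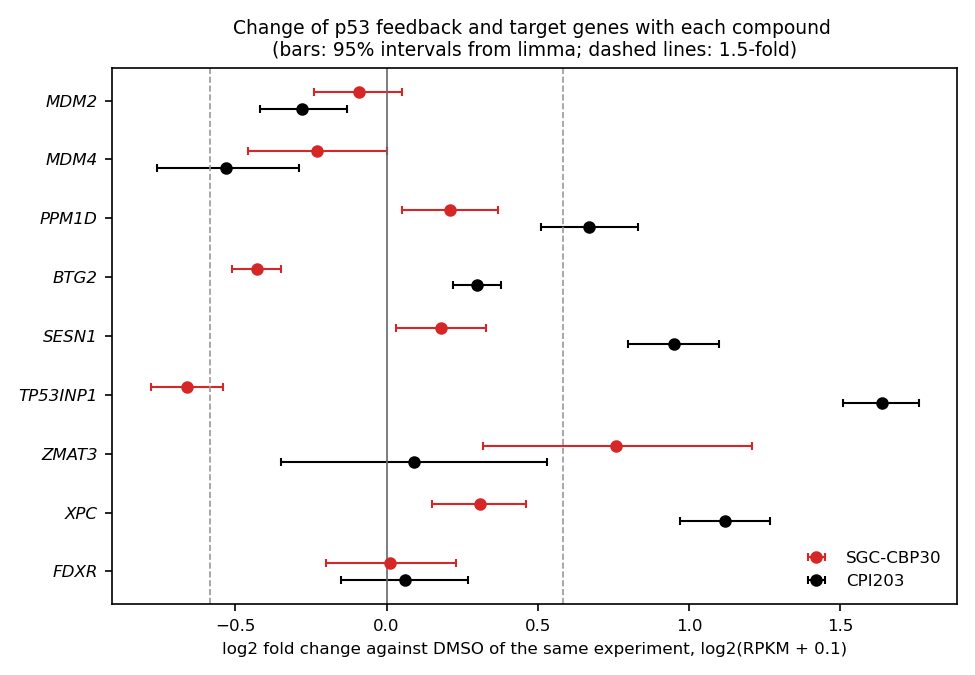
log2 fold change of the 9 genes against DMSO of the same experiment, on the log2(RPKM + 0.1) scale, with SGC-CBP30 in red, CPI203 in black, bars at the 95% intervals from limma and dashed lines at 1.5-fold. TP53INP1 lies at -0.66 with SGC-CBP30 and at 1.64 with CPI203, and the intervals of the 2 compounds do not overlap for PPM1D, BTG2, SESN1, TP53INP1 and XPC.

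The feedback regulators did not move as a group. Positions are those of the deposited annotation and are taken to be on hg19, the build named in the submitters' processing notes. MDM2 (ENSG00000135679, hg19 chr12:69201955-69239214) is the ubiquitin ligase that marks p53 for degradation and is itself a p53 target. It measured 21.4 and 22.5 RPKM in DMSO and 18.9 and 17.4 RPKM with CPI203, so both treated libraries were the lower ones, and the log2 fold change of -0.28 (SE 0.065, adjusted p = 0.00395, limma) stayed under 1.5-fold. Beside SGC-CBP30 it measured 23.1 and 21.3 RPKM in DMSO and 20.2 and 21.3 RPKM with the compound. These groups overlapped, and the log2 fold change was -0.09 with a 95% interval from -0.24 to 0.05 (adjusted p = 0.274). The listed span of MDM2 is overlapped by CPM and by clone-named genes, of which RP11-611O2.3 had a mean of 6.44 RPKM and, like MDM2, was lower with CPI203 (log2 fold change -0.65, adjusted p = 0.00124). Reads from shared bases cannot be told apart without a record of strand.

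MDM4 (ENSG00000198625, hg19 chr1:204485510-204542871), the MDM2 relative that masks the activation domain of p53, showed the same order. It measured 9.25 and 9.2 RPKM in DMSO and 6.19 and 6.56 RPKM with CPI203. Both treated libraries were below both controls, with a log2 fold change of -0.53 (SE 0.104, adjusted p = 0.0014, limma) and a level 0.691 times that in DMSO, just short of the fold required for a call. With SGC-CBP30 it measured 7.43 and 8.72 RPKM against 10.3 and 8.65 RPKM in DMSO, so the groups overlapped, and the 95% interval of the log2 fold change ran from -0.46 to 0.00 (adjusted p = 0.108, and 0.0396 to 0.525 over the alternatives). RP11-430C7.2, which shares 849 bases of the listed span of MDM4, had a log2 fold change of -0.28 with CPI203 (adjusted p = 0.0268), the same direction as MDM4, and how reads were divided was not tested.

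PPM1D (ENSG00000170836, hg19 chr17:58677543-58741849) encodes the phosphatase WIP1, which removes activating phosphates from p53 and from kinases of the damage response. It measured 7.9 and 8.77 RPKM in DMSO and 13.3 and 13.4 RPKM with CPI203. The treated libraries nearly coincided and lay above both controls, at 1.6 times the DMSO level (log2 fold change 0.67, SE 0.071, adjusted p = 2.19e-05, limma). With SGC-CBP30 the values were 10.2 and 9.84 RPKM against 8.7 and 8.51 RPKM in DMSO, again without overlap, and the log2 fold change of 0.21 (SE 0.071, adjusted p = 0.0374) did not reach 1.5-fold. This p passed 0.05 in some alternatives only, and over all of them it ran from 0.0245 to 0.205. It was 0.147 under median scaling, 0.205 under quantile normalization, 0.0573 with all 4 DMSO libraries, and 0.0886 to 0.163 with any library of that experiment left out. Of the 3 feedback regulators, PPM1D was thus the only called gene, and with CPI203 its direction was opposite to that of MDM2 and MDM4.

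Among the target genes that restrain growth, TP53INP1 (ENSG00000164938, hg19 chr8:95938199-95961639) had the log2 fold change farthest from 0 with CPI203. Its product is a stress-induced protein that promotes p53 activity and takes part in autophagy. It measured 30.1 and 31.0 RPKM in DMSO and 95.5 and 95.3 RPKM with CPI203, 3.12 times the DMSO level (log2 fold change 1.64, SE 0.055, adjusted p = 1.8e-08, limma), and 1.12% of all genes tested had a higher log2 fold change with this compound. With SGC-CBP30 it measured 22.0 and 24.7 RPKM against 37.1 and 36.6 RPKM in DMSO, 0.633 times the DMSO level (log2 fold change -0.66, SE 0.055, adjusted p = 2.94e-05). The gene was thus above its controls with one compound and below them with the other. The call with SGC-CBP30 was lost without replicate 1 of that compound, where the log2 fold change was -0.58, and with all 4 DMSO libraries as controls, where it was -0.53, both under 1.5-fold. The whole listed span of TP53INP1 lies within that of NDUFAF6, which had 37.4 and 40.6 RPKM in DMSO and 28.7 and 29.7 RPKM with CPI203 (log2 fold change -0.42), and 43.0 and 40.5 RPKM with SGC-CBP30 against 37.9 and 36.9 RPKM (0.16). NDUFAF6 therefore had the opposite direction to TP53INP1 in both experiments, and how reads were divided between the pair was not tested.

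SESN1 (ENSG00000080546, hg19 chr6:109307639-109416022), a sestrin that restrains mTORC1 signalling and oxidative stress, measured 9.68 and 10.4 RPKM in DMSO and 19.7 and 19.2 RPKM with CPI203. Both treated libraries lay well above both controls, at 1.94 times the DMSO level (log2 fold change 0.95, SE 0.068, adjusted p = 1.46e-06, limma). With SGC-CBP30 it measured 7.6 and 7.44 RPKM against 6.46 and 6.79 RPKM. The groups did not overlap, but the log2 fold change of 0.18 did not pass the test (adjusted p = 0.0581), and it turned to -0.11 when all 4 DMSO libraries served as controls.

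BTG2 (ENSG00000159388, hg19 chr1:203274618-203278730), an antiproliferative protein that works with the mRNA deadenylation machinery, passed an adjusted p of 0.05 in both experiments, in opposite directions and by less than 1.5-fold. It measured 130 and 134 RPKM in DMSO and 160 and 165 RPKM with CPI203 (log2 fold change 0.30, SE 0.035, adjusted p = 4.18e-05, limma). With SGC-CBP30 it measured 84.3 and 81.5 RPKM against 111 and 113 RPKM (log2 fold change -0.43, SE 0.035, adjusted p = 2.44e-05). Neither pair of groups overlapped. BTG2 and TP53INP1 were the 2 of the 9 genes that passed an adjusted p of 0.05 with both compounds in opposite directions.

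ZMAT3 (ENSG00000172667, hg19 chr3:178735010-178790067), a zinc finger protein that binds RNA, was the only one of the 9 called higher with SGC-CBP30. It measured 2.17 and 1.45 RPKM in DMSO and 2.87 and 3.3 RPKM with the compound, 1.71 times the DMSO level (log2 fold change 0.76, SE 0.198, adjusted p = 0.013, limma). The treated libraries were above both controls, but the controls differed from each other by about as much as the upper control did from the lower treated library. Without DMSO replicate 2 the log2 fold change was 0.49 (adjusted p = 0.0908) and without SGC-CBP30 replicate 2 it was 0.67 (adjusted p = 0.0896), so the call was lost in each case. Over all alternatives its adjusted p ran from 0.00622 to 0.104. With CPI203 it measured 2.34 and 2.61 RPKM against 2.06 and 2.61 RPKM in DMSO, which overlapped, and the 95% interval of the log2 fold change ran from -0.35 to 0.53 (adjusted p = 0.715).

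The remaining target genes act in DNA repair and in mitochondria. XPC (ENSG00000154767, hg19 chr3:14186646-14220283), which recognises DNA damage in global genome nucleotide excision repair, measured 10.5 and 9.38 RPKM in DMSO and 22.2 and 21.3 RPKM with CPI203. Both treated libraries were above 2 times each control, with a level 2.18 times that in DMSO (log2 fold change 1.12, SE 0.068, adjusted p = 5.53e-07, limma). With SGC-CBP30 it measured 13.3 and 13.1 RPKM against 10.8 and 10.6 RPKM, without overlap and at 1.24 times the DMSO level (log2 fold change 0.31, SE 0.068, adjusted p = 0.00632). LSM3, whose listed span shares 427 bases with XPC, had log2 fold changes of -0.15 with CPI203 and 0.08 with SGC-CBP30.

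FDXR (ENSG00000161513, hg19 chr17:72858618-72869156), the reductase that passes electrons to mitochondrial ferredoxins, was the steadiest of the 9 genes. It measured 4.2 and 3.88 RPKM in DMSO and 4.12 and 4.31 RPKM with CPI203, and with SGC-CBP30 4.26 and 4.23 RPKM against 4.18 and 4.22 RPKM. The 95% interval of the log2 fold change ran from -0.15 to 0.27 with CPI203 (adjusted p = 0.595) and from -0.20 to 0.23 with SGC-CBP30 (adjusted p = 0.923). The sign with SGC-CBP30 turned when libraries were scaled to the same median (-0.06) or quantile normalised (-0.05).

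The difference between the compound effects was tested in the same fit, as CPI203 minus SGC-CBP30. It passed an adjusted p of 0.05 for 5 of the 9 genes, where 50.3% of all genes tested did, so the share was near the background. For TP53INP1 it was 2.3 on the log2 scale (SE 0.078, adjusted p = 1.19e-07, limma), a difference that 0.319% of all genes exceeded. XPC (0.81, adjusted p = 9.7e-05), SESN1 (0.77, adjusted p = 0.000131), BTG2 (0.73, adjusted p = 3.24e-06) and PPM1D (0.46, adjusted p = 0.00418) also had a higher change with CPI203. For ZMAT3 the 95% interval of the difference ran from -1.30 to -0.05 (adjusted p = 0.07), for MDM4 from -0.63 to 0.03 (adjusted p = 0.12), for MDM2 from -0.39 to 0.02 (adjusted p = 0.127) and for FDXR from -0.25 to 0.35 (adjusted p = 0.79), and these did not pass. Without DMSO replicate 1 beside SGC-CBP30 the difference passed for ZMAT3 (-0.95, adjusted p = 0.015) and MDM4 (-0.42, adjusted p = 0.043), and without DMSO replicate 1 of the CPI203 experiment for ZMAT3 (-0.84, adjusted p = 0.0492). Over all alternatives the adjusted p ran from 0.015 to 0.228 for ZMAT3 and from 0.043 to 0.364 for MDM4.

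The transcripts of the coactivators that SGC-CBP30 binds were not called with either compound. CREBBP, which encodes CBP, had log2 fold changes of 0.06 with SGC-CBP30 (adjusted p = 0.615, limma) and 0.17 with CPI203 (adjusted p = 0.102). EP300 had 0.30 (adjusted p = 0.0142) and 0.57 (adjusted p = 0.000142), both under 1.5-fold.

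A wider set of 88 other p53 pathway genes was examined, and 75 of them were tested, 45 of these targets and 30 regulators of p53. With CPI203, 16 of the 45 targets were called higher and 6 lower, where 13.4% and 14.4% of all genes were, and their median was 0.41 on the log2 scale. Without CDKN1A, which passed the filter on the mean only through the CPI203 libraries, 15 of 44 were called higher and the median was 0.40. With SGC-CBP30, 2 were called higher and 3 lower, where 3.47% and 3.79% of all genes were, and the median was 0.09. The number lower with CPI203 and both numbers with SGC-CBP30 were small and near these shares. The targets fell into 4 lists set by gene symbol, and whether p53 regulates each listed gene in LP-1 was not tested. Of 8 cell cycle arrest genes, 6 were called higher and 1 lower with CPI203 (median 0.82), and 5 of 7 higher without CDKN1A (median 0.80). With SGC-CBP30, 0 of the 8 were called (median 0.12). At an adjusted p under 0.05 with no minimum fold, 3 were higher and 2 lower, where 25.6% and 14.8% of all genes were. Of 14 apoptosis genes, 1 was called higher and 5 lower with CPI203 (median -0.24), and 1 higher and 2 lower with SGC-CBP30 (median -0.10). DNA repair and nucleotide supply had 3 of 7 called higher and 0 lower with CPI203 (median 0.54) and 0 higher and 1 lower with SGC-CBP30 (median 0.16). Of 16 genes of metabolism, autophagy and stress, 6 were called higher and 0 lower with CPI203 (median 0.46) and 1 higher and 0 lower with SGC-CBP30 (median 0.15).

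**Figure D3:**
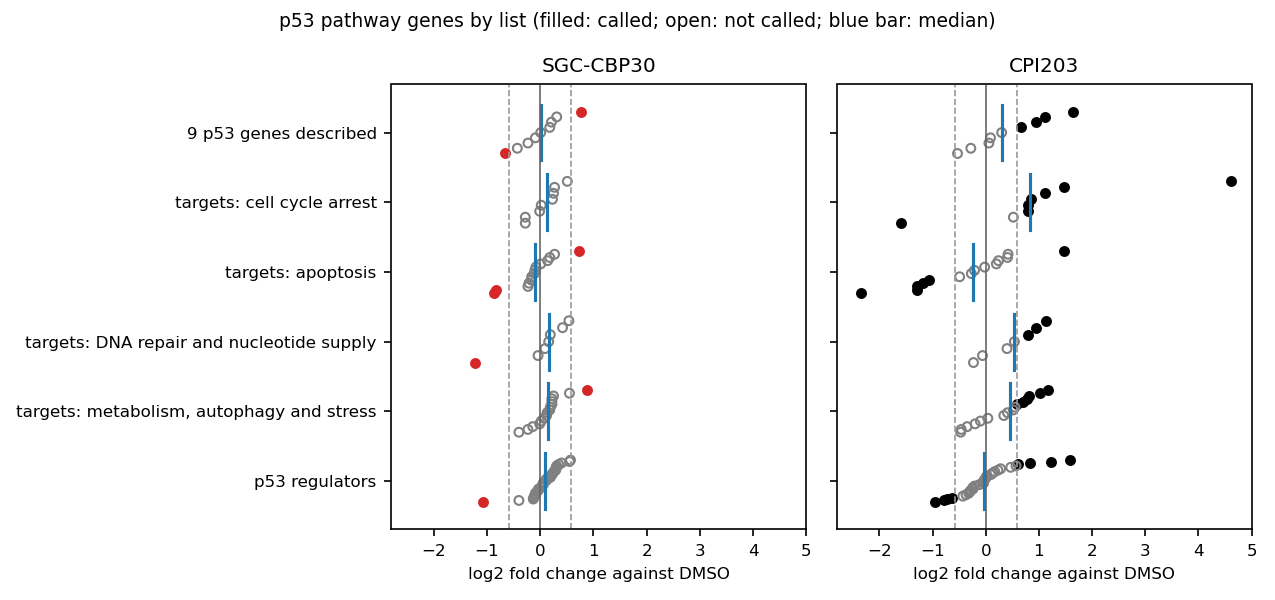
log2 fold change of every tested p53 pathway gene by list, with a point per gene, filled where called, a blue bar at the median of the list and dashed lines at 1.5-fold, SGC-CBP30 on the left and CPI203 on the right. With CPI203 the median is 0.82 for cell cycle arrest genes (0.80 without CDKN1A) and -0.24 for apoptosis genes. CDKN1A passed the filter on the mean only through the CPI203 libraries. With SGC-CBP30 all list medians lie between -0.10 and 0.16.

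In the cell cycle arrest list, CDKN1A, which encodes the CDK inhibitor p21, measured 0.217 and 0.121 RPKM in DMSO and 6.17 and 6.57 RPKM with CPI203 (log2 fold change 4.61). It passed the filter on the mean only through the CPI203 libraries, so no p is given for this change. About 7 reads stood behind its lowest library, and the log2 fold change ran from 2.66 to 5.22 over the alternatives. With SGC-CBP30 it was at 0.229 and 0.233 RPKM against 0.174 and 0.175 RPKM (adjusted p = 0.489, limma). GADD45A, which encodes a stress sensor that restrains the G2 to M transition, measured 5.27 and 4.66 RPKM in DMSO and 10.5 and 11.3 RPKM with CPI203 (1.12, adjusted p = 3.6e-06), and BTG1, a relative of BTG2, 23.4 and 22.8 RPKM and 65.9 and 63.2 RPKM (1.48, adjusted p = 2.85e-08). PLK3, a stress-responsive kinase, went the other way, from 3.83 and 4.34 RPKM to 1.6 and 1.02 RPKM (-1.60, adjusted p = 3.16e-05). With SGC-CBP30 the value of BTG1 was -0.28 (adjusted p = 0.00329), so like BTG2 it was lower with that compound and higher with CPI203.

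Among the apoptosis targets, AEN, a nuclease of apoptotic DNA digestion, measured 32.9 and 30.6 RPKM in DMSO and 6.27 and 6.15 RPKM with CPI203 (log2 fold change -2.34, adjusted p = 2.69e-09, limma), and its change with SGC-CBP30 was -0.08 (adjusted p = 0.282). FAS, the death receptor, was called lower with both compounds, from 22.6 and 22.9 RPKM to 12.7 and 12.2 RPKM with SGC-CBP30 (-0.87, adjusted p = 9.47e-05) and from 11.1 and 13.4 RPKM to 6.06 and 5.59 RPKM with CPI203 (-1.06, adjusted p = 4.28e-06). STEAP3, a metalloreductase, was likewise called lower with SGC-CBP30 (-0.84) and with CPI203 (-1.29). TNFRSF10C, a TRAIL decoy receptor that does not signal death, was lower with CPI203 (-1.30). The decoy was not alone in this, as the TRAIL receptor TNFRSF10A was also called lower with CPI203 (-1.17, adjusted p = 1.34e-06). TNFRSF10B was lower by less than 1.5-fold (-0.49, adjusted p = 0.000123). APAF1, the scaffold of the apoptosome, was the member of this list called higher with both compounds, with log2 fold changes of 0.73 with SGC-CBP30 (adjusted p = 0.00114) and 1.48 with CPI203 (adjusted p = 2.73e-06). The apoptosis list thus held called genes of both directions with each compound.

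**Figure D4:**
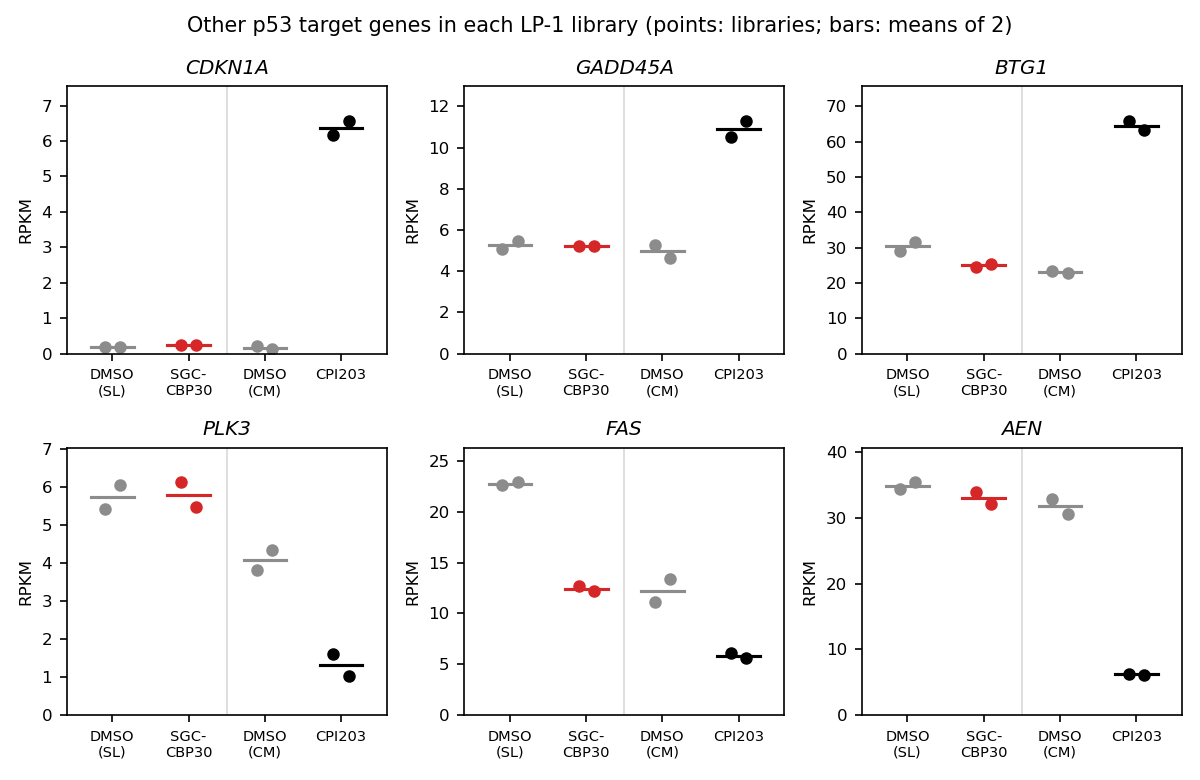
RPKM of 6 other p53 targets in each library, drawn as points with a bar at the mean of each group of 2, on linear axes from 0. PLK3 and AEN are low in both CPI203 libraries, FAS is lower with both compounds, and CDKN1A, GADD45A and BTG1 are high in the CPI203 libraries alone.

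Repair genes other than XPC included RRM2B, a p53-induced ribonucleotide reductase subunit, with log2 fold changes of 1.14 with CPI203 (adjusted p = 1.3e-07, limma) and 0.16 with SGC-CBP30. DDB2, which like XPC recognises ultraviolet damage, measured 7.76 and 7.44 RPKM in DMSO and 14.9 and 14.4 RPKM with CPI203 (0.94, adjusted p = 2.54e-06), and had 0.42 with SGC-CBP30 (adjusted p = 0.0018). POLH, a polymerase that copies past ultraviolet lesions, had 0.80 with CPI203 and 0.09 with SGC-CBP30. GADD45G was the gene of this list called with SGC-CBP30, from 5.52 and 5.6 RPKM to 2.3 and 2.36 RPKM (-1.22, adjusted p = 6.31e-05). In the metabolic list, SESN2, the sestrin related to SESN1, had 1.18 with CPI203 (adjusted p = 7.44e-07) and -0.23 with SGC-CBP30, and TP53INP2, an autophagy protein related to TP53INP1, had 1.03 with CPI203 (adjusted p = 2.07e-06) and 0.25 with SGC-CBP30. FUCA1, a lysosomal fucosidase, was called higher with both compounds (0.88 with SGC-CBP30 and 0.77 with CPI203), and ANKRA2, an ankyrin repeat protein, with CPI203 (0.81).

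Of the 30 regulators of p53, 4 were called higher and 4 lower with CPI203 (median -0.04), a share near the 27.8% of all genes called. HIPK2, a kinase that phosphorylates p53, was the 1 called with SGC-CBP30, at -1.07 on the log2 scale (adjusted p = 0.000212, limma). HIPK2 was also called lower with CPI203 (-0.72). SIRT1, which deacetylates p53, measured 15.2 and 14.9 RPKM in DMSO and 44.7 and 45.8 RPKM with CPI203 (1.58, adjusted p = 1.68e-08), without overlap. It had 0.57 with SGC-CBP30 (adjusted p = 5.38e-05), just under 1.5-fold. PPP1R13B, which directs p53 towards apoptotic genes (1.23), and TRIM24, a ligase for p53 (0.83), were higher with CPI203, and the methyltransferase PRMT5 was lower (-0.96). Of the 45 targets and 30 regulators together, 30 of 75 were called with CPI203, a larger share than the 27.8% of all genes. Without CDKN1A this was 29 of 74. Most of these calls were among the targets, with 16 higher and 6 lower. With SGC-CBP30, 6 of 75 were called, near the 7.26% of all genes.

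For each of the 5 called genes, the genes with the most alike pattern were found by the root mean square difference of log2(RPKM + 0.1) over the 8 libraries, after each profile was centred on its own mean. TP53INP1 was nearest to ZFP36, at 0.085, which measured 7.12 RPKM with SGC-CBP30 against 11.1 RPKM, and 28.9 RPKM with CPI203 against 8.69 RPKM (means of 2 libraries). Its next neighbours, HEXIM1 (0.172) and BAMBI (0.181), were farther away. The nearest gene was MKRN2 for PPM1D (0.031), ROBO1 for SESN1 (0.062), ZXDC for XPC (0.051) and BBS9 for ZMAT3 (0.083). These distances describe 8 libraries that share 4 groups, and other genes of similar change give similar values.

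**Figure D5:**
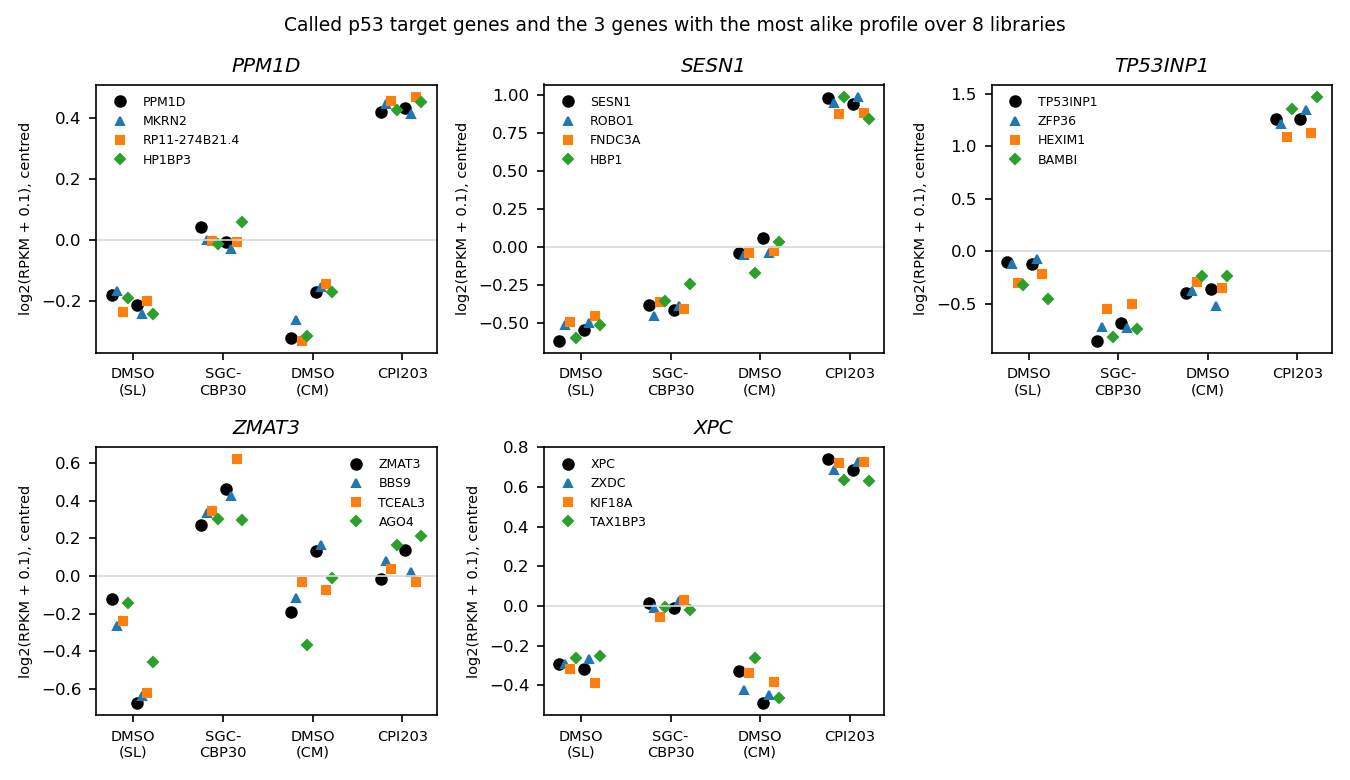
Centred log2(RPKM + 0.1) of the 5 called genes (black circles) and the 3 genes of most alike profile (coloured symbols) in each library, in 4 groups of 2, with each gene's mean over the 8 libraries at 0. ZFP36 follows TP53INP1 in being low with SGC-CBP30 and high with CPI203, and the ZMAT3 panel has the widest spread between the 2 DMSO libraries marked SL.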

How the data were processed

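The authors deposited 1 RPKM value per gene and library, made by their sequencing provider, together with an annotation that gives gene symbols and positions. The submitters' processing notes name TopHat 1.4.1, Cufflinks and hg19, with no role or order, and whether counting used strand is not given in the sources used here. The table holds 24 other columns of per-sample values, which were not used. No counts are held, so no count test was run. Depth was estimated from the steps of low values, of which between 59.8% and 73.1% per library were whole reads within 0.1. It limits mainly genes at a few RPKM or less. Total RPKM was between 484019 and 501281 per library.

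27 genes lacked a value in some library and were dropped, and the 14732 whose mean reached 1 RPKM were tested on log2(RPKM + 0.1) with limma 3.58.1 in R 4.3.3, fitted to 4 group means over 8 libraries with an intensity trend (4 residual and 5.5 prior degrees of freedom). A fold change on this scale understates that of low genes. p-values measure the spread between libraries that the study calls biological replicates. On simulated data with 200 of 14732 genes changed in the SGC-CBP30 comparison, 87% of 2-fold and 100% of 4-fold changes were called, with 8 unchanged genes called. The simulation used normal noise and no difference in scale between libraries. In the data 40.4% of genes passed an adjusted p of 0.05 with SGC-CBP30, so the simulated rates need not hold there. The genes described and the lists were chosen with earlier results of these data known. Besides the 9 genes, CDKN1A, CREBBP and EP300, the text names up to 4 called genes per list and compound by size of change, and the 3 nearest profiles of each called gene, of which some are shown only in a plot; 1 further gene under this rule is not reported here. Genes overlapping a listed span, markers and list counts are named where they are reported. TNFRSF10A and TNFRSF10B are named beside TNFRSF10C outside this rule. Alternatives were another pseudocount, filters, scalings, controls, thresholds, separate fits, no trend, a replicate block and each library left out. Tables and promoter searches were made with pandas 2.3.3 and numpy 2.4.6 under Python 3.11.15, and figures with matplotlib 3.10.9.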

Additional observations from a re-analysis of the deposited data

How the results depend on the processing

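SGC-CBP30 gave 2 calls among the 9 genes. This became 1 with a pseudocount of 1, with a mean of at least 5 RPKM (where ZMAT3 and FDXR are not tested) and with no filter, 0 with all 4 DMSO libraries as controls and at 2-fold, 5 with no minimum fold, and 1 to 2 with a library left out. ZMAT3 lost its call at 0.55 with a pseudocount of 1, at 0.76 with no filter (adjusted p = 0.0915), and at 0.58 with all 4 DMSO libraries (adjusted p = 0.104), where TP53INP1 was at -0.53. The 4 genes called with CPI203 became 7 with no minimum fold and 2 at 2-fold, and stayed 4 with any library left out. The 5 genes that differed between the compounds were 5 to 7 with a library left out. Of the other pathway genes, 6 were called with SGC-CBP30, against 3 with a mean of at least 5 RPKM, 38 with no minimum fold, 2 at 2-fold and 6 to 9 with a library left out, and 30 with CPI203, against 57 with no minimum fold, 15 at 2-fold and 29 to 32 with a library left out. Leaving CDKN1A out of the count, chosen after seeing the data, gave 6 and 29. With no minimum fold, 40.4% of all genes tested passed with SGC-CBP30 and 64.2% with CPI203. The share of all genes at 2-fold was not counted, so the counts at 2-fold cannot be set against a background.

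The sign turned in 5 cases, none of them a change that was called: SESN1 with SGC-CBP30 (-0.11) with all 4 DMSO libraries, FDXR with SGC-CBP30 under median scaling (-0.06) and quantile normalization (-0.05), FDXR between the compounds without DMSO replicate 2 beside CPI203 (-0.01, in a range of -0.01 to 0.10 with a library left out), and ZMAT3 with CPI203 without DMSO replicate 1 (-0.07, in a range of -0.07 to 0.25). The cause was not tested. Scaling moved the share of calls that were higher with SGC-CBP30 from 47.8% to 32.5% (median) and 32.4% (quantile), and the median of all genes from 0.07 to -0.01 and 0.03.

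The study speaks of paired DMSO controls without giving the pairs, and the labels give replicate numbers. Whether these pair the libraries could not be settled: the correlation of same-numbered deviations was -0.172 in the SGC-CBP30 experiment and -0.039 in the CPI203 experiment. With the replicate block the 5 counts were 2, 4, 5, 6 and 30, as without it, while PPM1D with SGC-CBP30 had an adjusted p of 0.0712 by limma. With crossed numbers in the SGC-CBP30 experiment, an alternative chosen after seeing the data, they were 2 for the 9 genes, 7 for the difference and 6 for the other pathway genes. By estimated reads, depth most limits CDKN1A (about 7 reads in its lowest library), PLK3 (76), PLK2 of the cell cycle arrest list (105), STEAP3 (107) and GADD45G (108). Of the 9 genes FDXR had the fewest estimated reads in its lowest library (255), followed by ZMAT3 (462). These numbers assume the longest annotated transcript of each gene. ZMAT3 had the lowest RPKM of the 9 in DMSO, and an SE with SGC-CBP30 of 0.198 against 0.094 for FDXR.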
